A study of Mus musculus with 12 samples.

Results

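The gene Dmbt1 and a group of bile duct marker genes were examined in mouse liver. Members were taken by name: Dmbt1, Krt7, Krt19, Epcam, Sox9, Spp1 and Cftr, 7 genes against the 19938 genes measured in the series. A probe with a single gene symbol was found for 6 of the 7, and each of those had 1 probe. Spp1 is not analysed here. The set was chosen by measured levels in these same arrays. Dmbt1 was chosen for a gap between wild-type and knock-out livers in part of the arrays, described below. All its values are therefore given as a description with no test. For the other members, which levels counted is not recorded.

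Dmbt1 encodes a large secreted glycoprotein with scavenger receptor cysteine-rich domains that binds bacteria, surfactant protein D and trefoil peptides. It is made by epithelial cells, those of mucosa, bile ducts and pancreas among them. Bile ducts are tubes lined by cholangiocytes, a minority of liver cells, which form from the same embryonic precursors as hepatocytes under Notch and TGF-beta signals. Krt7 and Krt19 are keratins of that lining, Epcam is a cell adhesion molecule, Sox9 is a transcription factor of the biliary lineage, and Cftr is the chloride channel of its apical membrane. Several of these genes are also used by the ducts of the pancreas, so the acinar enzyme gene Cela1, a digestive elastase, was followed beside them as a sign of pancreas tissue.

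The animals were 12 male C57BL/6J mice, 1 array per animal, whose ages are not given in the sources used here beyond being matched. There were 4 groups of 3, none of them treated: first-generation (G1) mTERT knock-outs (KO), mTERT wild types (WT), first-generation mTR KO and mTR WT. mTERT is the protein part of telomerase and mTR its RNA part. WT and KO mice of a set were littermates, and the title of each sample carries a number from 1 to 3, here called the title number, that is taken to mark the set, for 6 litters in all. Whole liver was homogenised, so a lower level can mean fewer cells of a type or less RNA per cell, and these cannot be told apart.

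Values are log2 intensities, and a difference of 1 is a factor of 2 if the logarithm has base 2, as the range from 2.62 to 13.83 implies. Array medians lay between 4.37 and 4.43. The background level was set at 4.34, averaged over arrays from the 95th percentile of 1027 genes for odorant receptors, a family silent in liver. Tert itself was at 4.58 ± 0.391 (SD, n = 3) in mTERT WT livers and at 4.05 ± 0.100 (SD, n = 3) in the KO. The groups overlapped: mTERT WT 1 read 4.13, below background and below mTERT KO 3 at 4.15. Only mTERT WT 2 and 3, at 4.78 and 4.83, lay above the KO arrays. The Terc probe was below background in 11 of 12 arrays, with 4.13 ± 0.235 (SD, n = 3) in mTR KO and 4.20 ± 0.0650 (SD, n = 3) in mTR WT, so it gives no check of the mTR deletion. Hepatocyte markers, 8 genes with a probe, had a mean level between 12.4 and 12.6 in every array. Pancreas acinar markers were at a mean of 3.79 to 3.96 in 7 arrays and higher in the other 5, at 9.38 in mTR KO 1, 8.01 in mTERT KO 1, 7.42 in mTERT WT 2, 6.19 in mTERT WT 1 and 5.89 in mTR WT 2.

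Dmbt1 was the member that differed most between animals. Its probe, 10558159, read 5.08, 7.12 and 8.06 in mTERT WT 1, 2 and 3 and 5.28, 6.82 and 7.10 in mTR WT 1, 2 and 3. All 6 WT livers were above the background level. The KO livers were split by title number: mTERT KO 1, 2 and 3 read 7.40, 3.70 and 3.67, and mTR KO 1, 2 and 3 read 9.34, 3.80 and 3.78. In both lines KO 2 and KO 3 were below background, while KO 1 was above its WT littermate, and mTR KO 1 held the highest level of all 12 arrays.

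**Figure D1:**
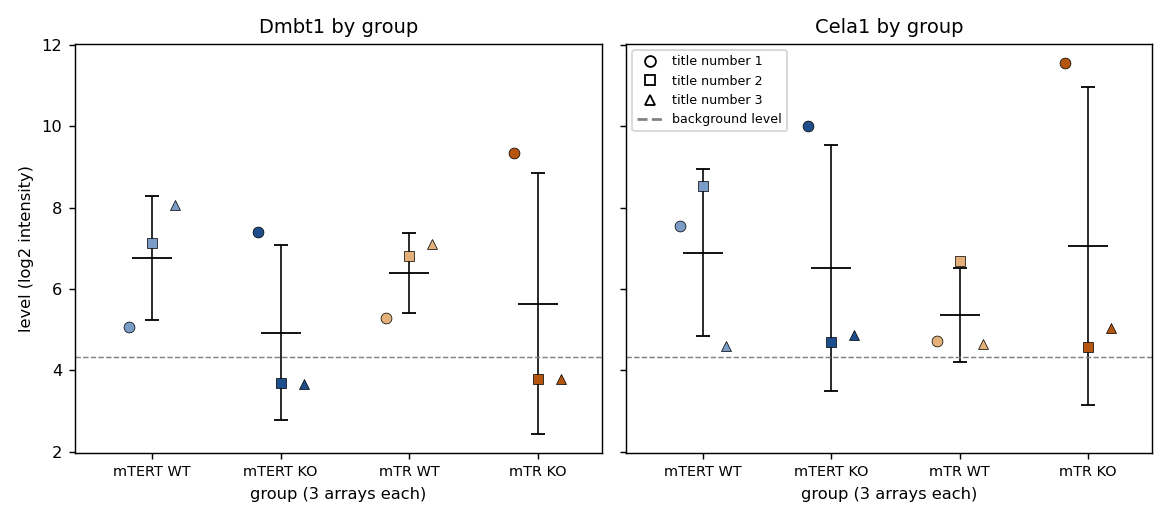
Level of Dmbt1 (left) and Cela1 (right) in log2 intensity, 1 point per array, by group; the horizontal bar is the mean and the whisker the SD over 3 arrays, the marker shape is the title number and the dashed line the background level of 4.34. Dmbt1 is below background in the 4 KO arrays of title numbers 2 and 3 and above it in the other 8.

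The litter differences show the same split. KO minus WT for Dmbt1 was 2.32 in mTERT litter 1, then −3.42 and −4.39 in mTERT litters 2 and 3. In the mTR line it was 4.06 in litter 1, −3.02 in litter 2 and −3.32 in litter 3. The sign was thus positive in both litters of number 1 and negative in the 4 litters of numbers 2 and 3. Since the KO values of those 4 litters lie below background, the level there is known only as an upper bound.

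Because of that split, the group means of Dmbt1 overlapped widely. In the mTERT line the WT mean was 6.75 ± 1.53 (SD, n = 3) and the KO mean 4.92 ± 2.15 (SD, n = 3), a difference of −1.83 (SE 1.46). The mTR WT mean was 6.40 ± 0.979 (SD, n = 3) and the mTR KO mean 5.64 ± 3.20 (SD, n = 3), a difference of −0.76 (SE 1.46). Ordered by mean, mTERT WT came first, then mTR WT, mTR KO and mTERT KO, and no neighbours in that order differed by more than their spread. The difference of the KO effects, mTR minus mTERT, was 1.07 (SE 2.06). Between the lines, mTR WT minus mTERT WT was −0.35 and mTR KO minus mTERT KO was 0.72, each with SE 1.46. Single arrays decided the sign of several of these. The mTR difference was 0.16 without mTR KO 2 and 0.17 without mTR KO 3, and −2.61 without mTR KO 1. Without mTR KO 1 the difference of the KO effects was −0.78 and that of the KO groups −1.13. The WT groups differed by 0.30 without mTERT WT 3 and by 0.21 without mTR WT 1.

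Over title numbers 2 and 3 alone, WT and KO levels of Dmbt1 did not overlap. The lowest of the 4 WT arrays read 6.82 and the highest of the 4 KO arrays 3.80, a gap of 3.02, and the means were 7.27 and 3.74. Of 20197 probes, 112 had all 4 WT arrays above all 4 KO arrays and 125 had the reverse. Dmbt1 was the only one of these with a gap above 1 log2 unit. The next gap was 0.55, for a probe without a gene symbol, and Zfp706 followed with 0.23. Of the 112 probes, 35 had KO above WT in both litters of number 1, as Dmbt1 had. This gap is the pattern by which the gene was chosen, so its rank and these counts support nothing further.

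Cela1, probe 10432652, was used as the rule's sign of pancreas tissue. It read 7.54, 8.53 and 4.59 in mTERT WT 1, 2 and 3, and 9.99, 4.70 and 4.86 in mTERT KO 1, 2 and 3. In the mTR line it read 4.71, 6.68 and 4.65 in WT 1, 2 and 3, and 11.56, 4.58 and 5.04 in KO 1, 2 and 3. The arrays fell into separate clusters: 7 lay between 4.58 and 5.04 and 5 between 6.68 and 11.56. The 5 arrays with raised Cela1 are the same 5 in which the acinar marker list was raised.

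**Figure D2:**
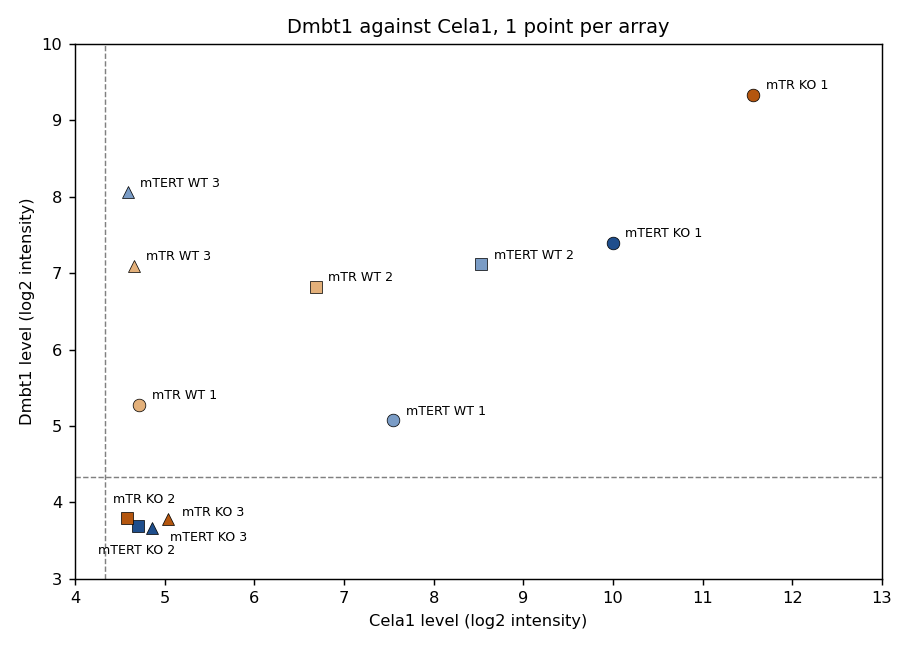
Level of Dmbt1 (vertical) against the level of Cela1 (horizontal), both in log2 intensity, 1 point per array; dashed lines mark the background level of 4.34. The 5 arrays with raised Cela1 all have Dmbt1 at 5.08 or higher, while the 7 arrays with low Cela1 span Dmbt1 levels from 3.67 to 8.06.

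Dmbt1 and Cela1 were both highest in mTR KO 1, and all 5 arrays with raised Cela1 had Dmbt1 above background. Among the 7 arrays with low Cela1, however, Dmbt1 was both high and low. For title number 3, WT and KO had nearly the same Cela1, 4.59 against 4.86 in the mTERT line and 4.65 against 5.04 in the mTR line. Dmbt1 in those same arrays was 8.06 against 3.67 and 7.10 against 3.78. mTR WT 1, with Cela1 at 4.71, had Dmbt1 at 5.28. So the WT minus KO difference of Dmbt1 in the litters of number 3 was present without raised Cela1, whereas for title number 2 the WT arrays had more Cela1 than the KO arrays by 3.83 and 2.10, and for title number 1 the KO arrays had more by 2.45 and 6.85. The part of pancreas tissue in the Dmbt1 levels of numbers 1 and 2 was not tested. Within the 5 arrays with raised Cela1, ordered from highest to lowest Cela1, Dmbt1 read 9.34, 7.40, 7.12, 5.08 and 6.82. These were mTR KO 1, mTERT KO 1, mTERT WT 2, mTERT WT 1 and mTR WT 2. The arrays fall into clusters by Cela1, so a correlation over all 12 would not by itself describe a graded relation.

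Other tissue markers also moved in some of these arrays. Skeletal muscle markers, 12 genes, averaged 6.82 in mTERT WT 3 and 7.16 in mTERT WT 1, while the other 10 arrays lay between 3.86 and 4.62. mTERT WT 3 thus held both the second highest Dmbt1 and muscle transcripts, while mTR WT 3, with Dmbt1 at 7.10, had the muscle list at 3.93. The mesothelium list, 10 genes that include Krt7, Krt8 and Krt19, was highest in mTERT WT 3 at 5.07 and mTR WT 3 at 4.94, against 4.56 to 4.86 elsewhere. Its defining marker Msln read 4.34 and 4.35 in those arrays, at the background level. Of the 10 genes, 2 were below background in all 12 arrays. For mTERT KO against WT, 0 of the 9 tested genes of this list had a difference above 0, where 54.4% of all probes had. For mTR KO against WT, 1 of the 9 had, where 45.9% of all probes had. No gene of this list was called in these comparisons. The intestine list lay between 4.99 and 5.15 in every array. The part of these tissues in the Dmbt1 level was not tested.

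Genes that encode binding partners of Dmbt1 or act beside it in mucosal defence were taken as a list of 22 genes, of which 14 were tested. None was called in a comparison between groups, where 0% of all probes was called. Sftpd, the surfactant protein that Dmbt1 binds, was below background in all 12 arrays, between 3.42 and 3.84. Pigr, the receptor that carries antibody into bile, was steady between 11.16 and 11.62. Tff2, a trefoil peptide named here after its values were seen, read 8.28 in mTR KO 1, 6.30 in mTERT KO 1 and 5.40 in mTERT WT 2, all arrays with raised Cela1. In mTERT WT 3 and mTR WT 3 Tff2 read 3.93, below background, beside Dmbt1 levels of 8.06 and 7.10.

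The neighbours of Dmbt1 on its chromosome, taken from the order of genes in the RefSeq table of GRCm38.p6, did not share its split in title numbers 2 and 3. Htra1, a secreted protease next to it, had a mean over the 12 arrays of 4.17, and Plekha1, a membrane adaptor, of 5.76. Neither had the 4 WT arrays of those numbers above the 4 KO arrays. Cuzd1, a pancreatic zymogen granule gene, was at 8.47 in mTR KO 1, at 6.38 in mTERT KO 1 and at 6.15 in mTERT WT 2. These arrays all had raised Cela1. It was at 4.27 or less, below background, in the other 9 arrays. Among those were mTERT WT 1 at 4.27 and mTR WT 2 at 4.22, where Cela1 was also raised, and mTERT WT 3 and mTR WT 3.

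The genes whose levels ran most like Dmbt1 were sought among 14158 tested genes by Pearson correlation over the 12 arrays. They were Meg3, a long noncoding RNA, at 0.836, Spink4, a secreted protease inhibitor, at 0.797, Mcpt1, a mast cell protease, at 0.796, Cd24a, a surface protein of duct and immature epithelium, at 0.787, and Chst5, a sulfotransferase, at 0.772. Their Spearman values were 0.860, 0.713, 0.706, 0.734 and 0.741, and without mTR KO 1 and mTERT KO 3, the arrays farthest from the median of Dmbt1, their Pearson values were 0.722, 0.775, 0.694, 0.617 and 0.629. Mcpt1 and Chst5 were below background in all 12 arrays, and Meg3 spanned only 3.99 to 4.80. Cd24a was above background in 11 of 12 arrays. It was highest in mTR KO 1 at 5.42 and mTERT WT 3 at 5.38, the same 2 arrays that were highest for Dmbt1. By the same measure Cela1 correlated with Dmbt1 at 0.648, rank 77 of 14158. The duct members stood lower, with Krt19 at 0.443, Krt7 at 0.413, Epcam at 0.203 and Sox9 at 0.174, and Cftr, which was not ranked, at 0.458. All of these values are over the same arrays that cluster by Cela1 and describe likeness only.

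When the mean of each litter was first removed, which leaves 6 litter differences, other genes led. Srsf6, a splicing factor, correlated at 0.962 and spanned 7.79 to 8.13 before that removal. Dusp12, a phosphatase, correlated at 0.954. Before that removal it read 5.25 to 5.74 in number 1 and 6.19 to 6.49 in numbers 2 and 3. Most of the span of Dusp12 thus lay between title numbers, not within litters. Pde1b, Lrp2 and Rpl39l followed at 0.948, 0.936 and 0.926, all below background in all 12 arrays. Before litter means were removed, the range of Dmbt1, from 3.67 to 9.34, was several times wider than that of any of these genes. The arrays share their litters and, in part, raised Cela1, and no p is given for these values.

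The bile duct markers were low by comparison. Over the 12 arrays, Sox9 had a mean of 5.32, Krt19 of 4.65, Epcam of 4.35, Krt7 of 4.12 and Cftr of 3.70. Those means stood at the 62.4th, 53.3rd, 47.0th, 39.8th and 15.9th percentile of all genes, against the 69.6th for Dmbt1. Only Sox9 was above background in all 12 arrays, Krt19 was in 9, Epcam in 5, Krt7 in 1 and Cftr in none. Cftr was too low for the filter on dim probes and was not tested. The other 5 measured members passed the filter, and of these Krt7, Krt19, Epcam and Sox9 are given with a test. With most of them near background, the defining markers of bile duct were only partly detected in these livers.

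**Figure D3:**
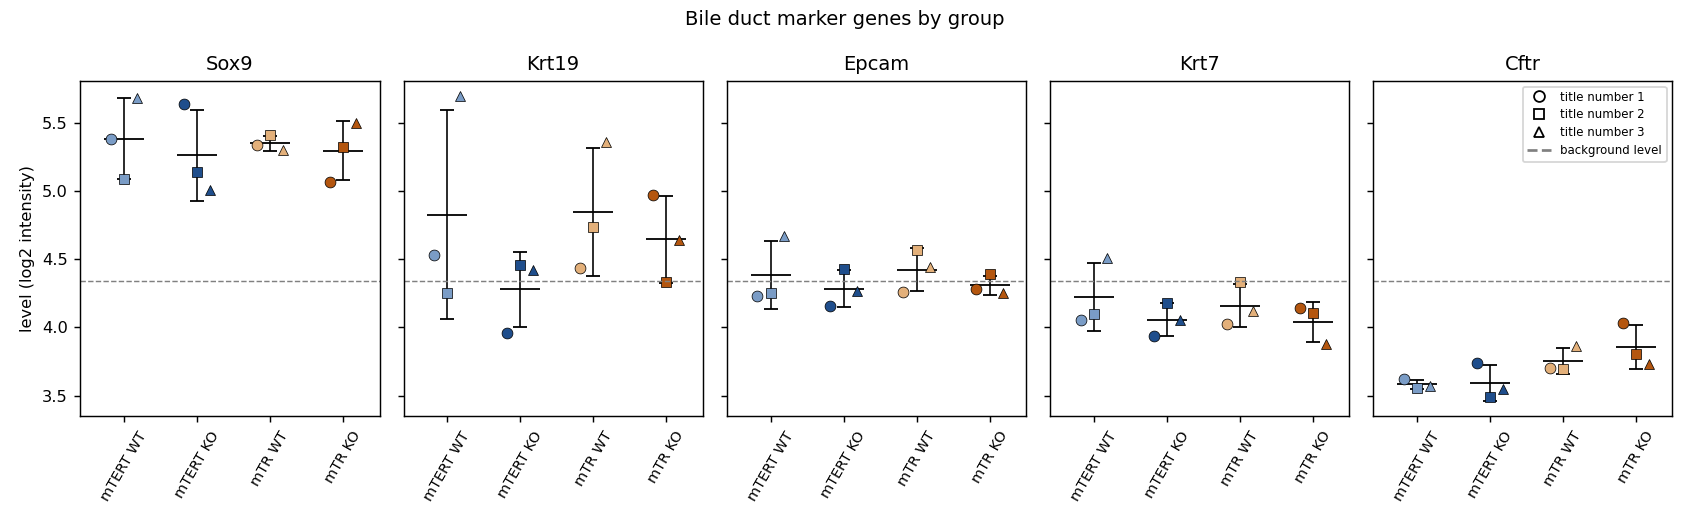
Level of the 5 bile duct members in log2 intensity, 1 point per array, by group, with the mean and SD over 3 arrays, the title number as marker shape and the background level of 4.34 dashed. Sox9 lies above background in all 12 arrays, and Krt19 is highest in mTERT WT 3 at 5.69 and mTR WT 3 at 5.36.

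Sox9, probe 10382328, read 5.38, 5.09 and 5.68 in mTERT WT 1, 2 and 3 and 5.64, 5.14 and 5.01 in mTERT KO 1, 2 and 3. In the mTR line it read 5.34, 5.41 and 5.30 in WT 1, 2 and 3 and 5.07, 5.32 and 5.50 in KO 1, 2 and 3. WT and KO overlapped in both lines. KO minus WT was −0.12 (SE 0.186, 95% interval −0.53 to 0.29) in the mTERT line and −0.05 (SE 0.186, 95% interval −0.46 to 0.35) in the mTR line.

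Krt19, probe 10391036, read 4.53, 4.26 and 5.69 in mTERT WT 1, 2 and 3 and 3.96, 4.46 and 4.42 in mTERT KO 1, 2 and 3. In the mTR line it read 4.44, 4.73 and 5.36 in WT 1, 2 and 3 and 4.97, 4.33 and 4.64 in KO 1, 2 and 3. The highest pair, mTERT WT 3 and mTR WT 3, were also the WT arrays with the highest Dmbt1 in their lines, and the mesothelium list was highest there. KO minus WT for Krt19 was −0.55 (SE 0.346, 95% interval −1.31 to 0.21) in the mTERT line and −0.20 (SE 0.346, 95% interval −0.96 to 0.56) in the mTR line. By litter it was −0.57, 0.20 and −1.27 in mTERT litters 1, 2 and 3 and 0.53, −0.40 and −0.72 in mTR litters 1, 2 and 3. Without mTERT WT 3 the mTERT difference was −0.11, and without mTR WT 3 the mTR difference was 0.06.

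Epcam, probe 10447383, read 4.23, 4.25 and 4.67 in mTERT WT 1, 2 and 3, 4.16, 4.43 and 4.27 in mTERT KO 1, 2 and 3, 4.26, 4.57 and 4.44 in mTR WT 1, 2 and 3, and 4.28, 4.39 and 4.25 in mTR KO 1, 2 and 3. Its whole range thus lay close to the background level, and WT and KO overlapped in both lines. KO minus WT was −0.10 (95% interval −0.40 to 0.20) in the mTERT line and −0.12 (95% interval −0.41 to 0.18) in the mTR line, each with SE 0.136.

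Krt7, probe 10427052, was above background only in mTERT WT 3, at 4.51, and lay between 3.87 and 4.33 in the other 11 arrays. KO minus WT was −0.17 (95% interval −0.47 to 0.14) in the mTERT line and −0.12 (95% interval −0.43 to 0.19) in the mTR line, each with SE 0.140. mTERT WT 3 was the highest array for Krt7, Krt19, Epcam and Sox9 alike. Cftr, probe 10536563, lay between 3.49 and 4.03, below background in every array. Its groups were apart only for mTR WT against mTERT WT, with levels from 3.69 to 3.86 and from 3.55 to 3.62, but both are below background.

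Promoter sequence was held for Krt7, Epcam and Cftr, members with probes near or below background, and for Cela1, the pancreas gene they were set against. The printed stretches are the 250 bases before the gene start in RefSeq, build GRCm38.p6, printed on the gene's strand at chr15:101412153-101412402 (plus) for Krt7, chr17:87635729-87635978 (plus) for Epcam, chr6:18170437-18170686 (plus) for Cftr and chr15:100687921-100688170 (minus) for Cela1. Capitals mark the E-box CACCTG on either strand, which reads CAGGTG on the reverse strand.
Krt7: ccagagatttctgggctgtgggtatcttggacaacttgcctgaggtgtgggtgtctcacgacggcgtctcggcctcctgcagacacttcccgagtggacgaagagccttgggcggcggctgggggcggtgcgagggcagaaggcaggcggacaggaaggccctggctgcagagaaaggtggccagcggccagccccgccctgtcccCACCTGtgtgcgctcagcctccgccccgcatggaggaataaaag
Epcam: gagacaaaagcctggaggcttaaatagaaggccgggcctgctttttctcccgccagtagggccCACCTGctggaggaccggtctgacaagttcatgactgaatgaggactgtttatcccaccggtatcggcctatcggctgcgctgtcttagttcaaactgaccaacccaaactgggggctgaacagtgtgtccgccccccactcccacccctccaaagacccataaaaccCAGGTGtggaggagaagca
Cftr: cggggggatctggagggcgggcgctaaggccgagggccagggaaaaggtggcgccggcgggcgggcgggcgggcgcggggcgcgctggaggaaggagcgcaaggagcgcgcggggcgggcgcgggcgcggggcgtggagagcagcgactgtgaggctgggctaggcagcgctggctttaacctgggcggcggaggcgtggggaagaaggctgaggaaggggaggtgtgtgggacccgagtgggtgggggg
Cela1: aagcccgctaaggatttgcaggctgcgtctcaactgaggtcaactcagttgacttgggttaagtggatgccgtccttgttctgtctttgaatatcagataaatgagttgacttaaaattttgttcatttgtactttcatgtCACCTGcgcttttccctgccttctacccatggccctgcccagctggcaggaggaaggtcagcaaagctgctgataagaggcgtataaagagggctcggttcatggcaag
Krt7 and Cela1 held 1 match, Epcam 2 and Cftr none. Among 32851 promoter windows of this length, 17.2% held it. The other motifs searched on both strands, the HNF1 half-site GTTAAT, the SOX motif ACAATG and the RBPJ motif TTCCCA, were in 6.43%, 10.7% and 21.6% of windows and had no match in these 4. A match is a description of letters, not of a bound site.

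The 4 tested duct markers Krt7, Krt19, Epcam and Sox9 were called in none of the comparisons between groups. In limma with Benjamini-Hochberg adjustment over all 20197 probes their adjusted p was 0.999977 for mTERT KO against WT, 0.999958 for mTR KO against WT, 0.999825 for the difference of the KO effects, 0.999906 for mTR WT against mTERT WT and 1 for mTR KO against mTERT KO. Each of these 5 comparisons called 0% of the probes, with 283, 195, 293, 525 and 384 probes at an unadjusted p under 0.05, so the lack of calls is not particular to the duct markers. Groups of 3 that did not overlap were found for 4.33% of probes for mTERT KO against WT, 4.48% for mTR KO against WT, 5.95% for the WT groups and 5.9% for the KO groups. None of the 4 was among them. The intervals given above still leave room for differences either way, so the members are not shown to be alike between groups.

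**Figure D4:**
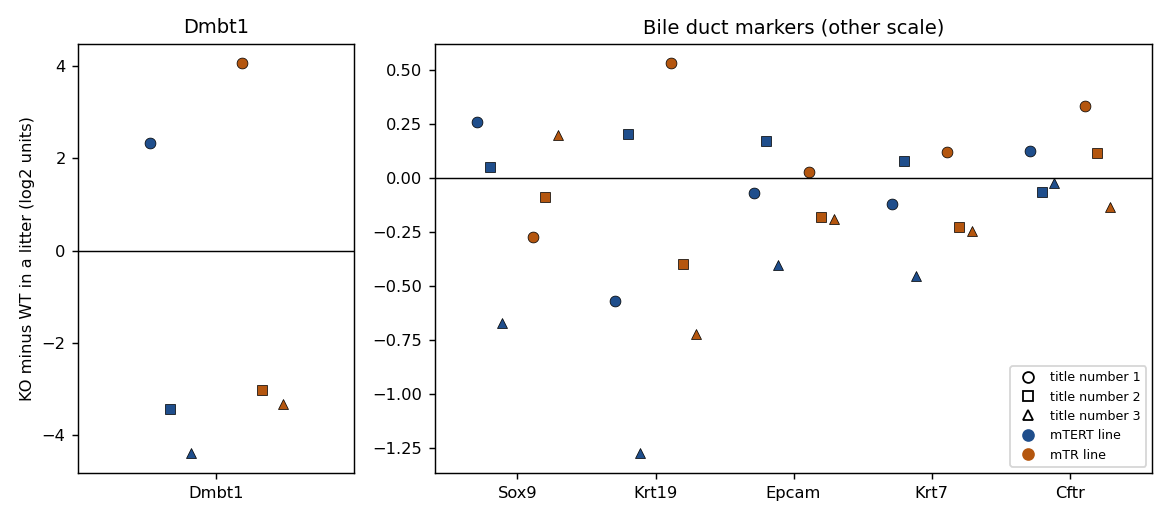
KO minus WT within each litter in log2 units, for Dmbt1 (left) and for the 5 duct markers on a finer scale (right); colour is the line and marker shape the title number. Dmbt1 lies at 2.32 and 4.06 in the litters of number 1 and between −4.39 and −3.02 in the other 4, while the widest duct marker difference is −1.27 for Krt19.

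Beyond the members, the bile duct list held 36 genes, 31 of them with a probe and 27 tested, and 10 of the 31 were below background in all 12 arrays. Its mean level per array ran from 5.14 in mTERT KO 1 to 5.45 in mTERT WT 3. For mTERT KO against WT the median difference was −0.05 with 10 of 27 genes above 0, where all probes had a median of 0.01 with 54.4% above 0. For mTR KO against WT it was 0.03 with 15 of 27 above 0, where all probes had −0.01 with 45.9% above 0. No gene of the list passed the test in the 5 comparisons between groups. Muc1, a surface mucin named here after its values were seen, was highest in mTR KO 1 at 5.10 and mTERT WT 3 at 4.89, the arrays highest for Dmbt1 and Cd24a. Not all genes of the list shared this order. Sox9 and Epcam were highest in mTERT WT 3, at 5.68 and 4.67, but read only 5.07 and 4.28 in mTR KO 1. Tspan8, also named after its values were seen, was highest in mTR WT 2 at 4.82 and mTR WT 3 at 4.81.

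By title number, the members were set out against the number with the groups as a covariate, number 1 minus numbers 2 and 3. That comparison called 7709 probes, 38.2% of those tested, 3456 higher and 4253 lower in number 1. The arrays of number 1 come from 2 litters per the reading of the titles, 1 in each line, so littermates share what their litter shares and the p-values are likely too small. Anything else that the arrays of number 1 shared across the lines coincides with the title number and cannot be told apart from it. Among the 4 tested duct markers, none was called, against 38.2% of all probes. Epcam was −0.18 (SE 0.0828, adjusted p 0.109), Krt7 −0.12 (adjusted p 0.345), Krt19 −0.26 (adjusted p 0.418) and Sox9 0.05 (adjusted p 0.784). Without mTERT WT 2, Epcam passed at −0.22 with adjusted p 0.0447.

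Dmbt1 averaged 6.77 ± 2.01, 5.36 ± 1.86 and 5.65 ± 2.26 (SD, n = 4 each) in numbers 1, 2 and 3, a difference of 1.27 (SE 1.00) for number 1. Without mTR KO 1 that difference was −0.16, so 1 library decided its sign. Cela1 averaged 8.45 ± 2.99, 6.12 ± 1.87 and 4.78 ± 0.204 (SD, n = 4 each) and was higher in number 1 by 3.00 (SE 1.06, adjusted p 0.0421). It was raised in 3 of the 4 arrays of number 1, 2 of the 4 of number 2 and none of number 3. The call of Cela1 did not hold without any 1 of 8 arrays, which were the 6 KO arrays, mTERT WT 3 and mTR WT 3, with adjusted p from 0.0584 to 0.220; without mTR KO 1 the difference was 1.75.

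In the bile duct list 3 genes rose and 4 fell in number 1, 7 of 27, against the 38.2% of all probes. Cldn3, a tight junction protein, fell by 0.50 (SE 0.102, adjusted p 0.00249), and Cdh1, the adhesion protein E-cadherin, fell by 0.44 (SE 0.110, adjusted p 0.00769). Krt8, a keratin that hepatocytes also make, rose by 0.46 (SE 0.0957, adjusted p 0.00273), and Aqp1, a water channel also made by endothelium, rose by 0.34 (SE 0.0989, adjusted p 0.0170). Aqp1 did not pass without mTR KO 1, at adjusted p 0.0979, or without mTR WT 1, at 0.0563. These genes are not restricted to ducts.

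**Figure D5:**
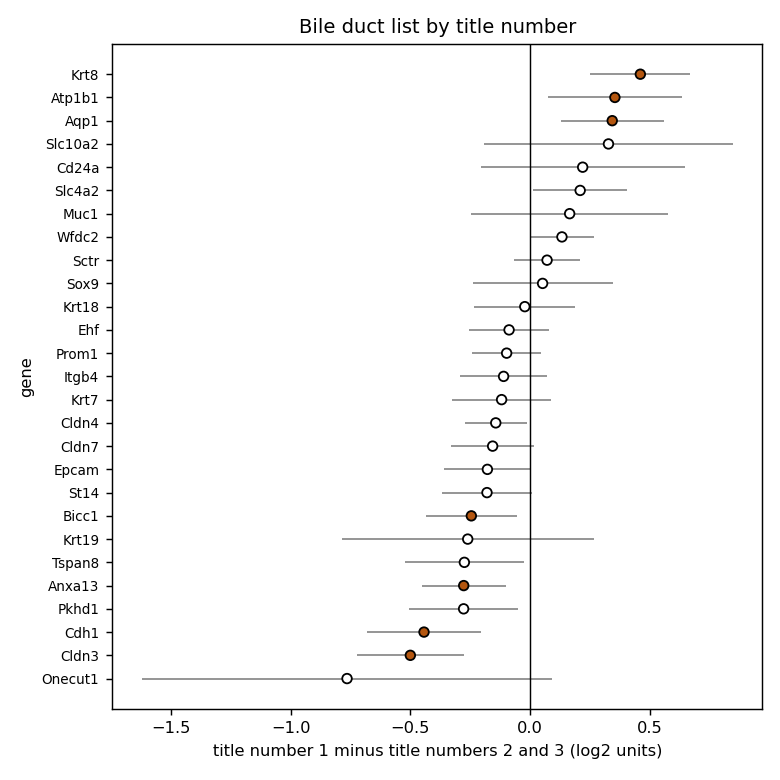
Title number 1 minus title numbers 2 and 3 in log2 units for the 27 tested genes of the bile duct list, with 95% intervals; filled points have an adjusted p under 0.05. Filled points lie on both sides of 0, 3 higher and 4 lower, and Krt7, Krt19, Epcam and Sox9 are open.

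Among 15 tested genes of the signals that specify ducts, 2 rose and 3 fell, 5 of 15, close to the 38.2% called among all probes. Fgfr2, a growth factor receptor, fell by 0.64 (SE 0.0849, adjusted p 0.000141), and Rbpj, the DNA-binding partner of Notch, fell by 0.39 (SE 0.0833, adjusted p 0.00348). Notch1, the receptor, rose by 0.50 (SE 0.0917, adjusted p 0.00130), and Amotl2, a target and inhibitor of YAP, rose by 0.39 (SE 0.0718, adjusted p 0.00141). In the defence list 3 of 14 rose and none fell, where 38.2% of all probes were called. Lcn2, an iron-trapping protein of the acute phase, was higher by 1.41 (SE 0.364, adjusted p 0.00954), led by mTERT WT 1 at 9.36 against 5.25 to 6.70 in the other 11 arrays, and the acute phase list was highest in the same array. Without that array the Lcn2 difference was 0.79 (adjusted p 0.0245).

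The counts of these lists moved with the arrays used. With the level of Cela1 as a covariate 3 bile duct genes, 3 specification genes and 1 defence gene were called. Calls over all probes fell too in that fit, as given in the last section. Leaving out each array in turn gave 4 to 9, 4 to 7 and 1 to 6, where 5831 to 7660 of all probes were called. The highest counts for the bile duct and defence lists came without mTERT WT 2, where 9 and 6 were called. In the defence list 4 of those 6 rose and 2 fell, and 1 gene fell without mTR KO 1 or without mTR KO 3. For the defence list 1 gene was called without mTERT KO 1, and 2 each without mTERT KO 2, mTR KO 1 or mTR WT 2. For the bile duct list 4 were called without mTERT WT 1. Without the arrays with raised Cela1 none was called in any of the 3 lists, but number 1 was then represented by mTR WT 1 alone.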

How the data were processed

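RNA of 12 livers was measured on one-colour Affymetrix arrays. The authors deposited log2 intensities. GCOS 1.4, PLIER and Affymetrix Expression Console appear in the submitters' processing notes, with no role or order. Base 2 was inferred from the range of values. Of 28853 probes, 21789 had 1 gene symbol in the platform annotation, 1621 several and 5443 none. A gene was represented by its probe of highest mean, without renormalization.

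Tests used limma 3.58.1 (R 4.3.3): lmFit of 4 group means over all 12 arrays and eBayes, two-sided, with Benjamini-Hochberg adjustment over 20197 probes whose mean was at or above the 30th percentile (3.90), called at an adjusted p under 0.05. The fit was tested on simulated data. Title number was tested with group as covariate. Labels do not say how animals relate beyond littermates.

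The members and gene lists were chosen with earlier results of these data known. Genes named are the members, Cela1, list genes past the threshold (up to 4 by smallest p) or of highest level, and the genes most like Dmbt1; only some of those are named, and others are marked or given as background. Promoters come from RefSeq tables of GRCm38.p6. Same-numbered KO and WT arrays, after group means were removed, correlated at 0.692, 0.135 and 0.623 (mTERT) and 0.458, 0.151 and 0.552 (mTR). KO 2 correlated more with WT 3 than with WT 2 in both lines, at 0.416 (mTERT) and 0.464 (mTR). The pairing thus comes from the series text, and this check does not bear it out for number 2. The litter was a block in an alternative fit.

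The alternatives were quantile normalization, median centring, other filters, other eBayes settings, fits of the compared groups alone, the replicate block, Cela1 as a covariate, and fits without the arrays with raised Cela1, without title number 1 and without each array in turn. Recounting the 3 duct and defence lists under some of these was chosen after seeing the data. The number of arrays limits the precision.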

Additional observations from a re-analysis of the deposited data

Results flagged for a closer look

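KO minus WT for Dmbt1 was 3.19 on average in the 2 litters of title number 1 and −3.54 in the 4 litters of title numbers 2 and 3, with every litter of the first kind above 0 and every litter of the second below 0. The difference between them was not tested. Cela1 was higher in the KO array than in the WT array of both litters of number 1, by 2.45 and 6.85, and its part in the difference was not tested.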

How the results depend on the processing

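The replicate block by litter, a pairing read from the title numbers, left 0 probes called in both KO comparisons. With it KO minus WT for Dmbt1 stayed at −1.83 (mTERT) and −0.76 (mTR), and no call of a member changed. Without title number 1 the KO comparisons called 1 probe each, that of Dmbt1; the gene was chosen by levels in these arrays, and removing number 1 takes out the litters that run the other way, so no test is read from it. Its differences were then −3.91 and −3.17. Without the arrays with raised Cela1, mTERT KO against WT called 72 probes, the difference of the KO effects 38, the WT groups 97 and title number 272 instead of 7709; Dmbt1 was then −4.38 for mTERT KO against WT, with mTERT WT 3 the lone WT array. With Cela1 as a covariate title number called 5118. Leaving out each array in turn gave 0 to 41 calls for mTERT KO against WT (41 without mTERT WT 2, 1 without mTERT WT 1), 0 to 0 for mTR KO against WT, 0 to 30 for the difference of the KO effects (30 without mTERT WT 2), 0 to 42 for the WT groups (42 without mTERT WT 2), 0 to 0 for the KO groups and 5831 to 7660 for title number. Without mTERT WT 2, the mTERT WT group was mTERT WT 1 and 3, the arrays with raised muscle markers, at 7.16 and 6.82. mTERT WT 3 was also the lone mTERT WT array without raised Cela1. The part of muscle tissue in these counts was not tested.

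The cause of the sign changes that follow was not tested, and they concern differences that were not called, or, for Dmbt1 and Cftr, not tested. Under quantile normalization the difference of the KO effects for Krt7 was −0.0037. With Cela1 as a covariate it was 0.040 for Epcam, the WT groups differed by −0.055 for Krt19 and −0.0018 for Epcam, and Dmbt1 was −0.16 for the difference of the KO effects, 0.55 for the WT groups and −0.83 for title number. Without the arrays with raised Cela1, mTR KO minus WT was 0.089 for Sox9 and −0.016 for Cftr, mTERT KO minus WT −0.054 for Cftr, the difference of the KO effects for Epcam 0.30, the WT groups −0.80 for Krt19 and −0.32 for Epcam, and title number −1.82 for Dmbt1 and −0.16 for Cftr, with mTR WT 1 the lone array of number 1. Without title number 1, mTR KO minus WT for Sox9 was 0.054, and the difference of the KO effects −0.051 for Krt7 and −0.024 for Krt19; Cftr was −0.045 (mTERT) and −0.0097 (mTR) for KO minus WT, and Cela1 for mTR KO minus WT turned from 1.71 to −0.86. The KO groups differed by −0.026 for Epcam in either of these reductions. Leaving out each array in turn, differences that changed sign ranged as follows. For mTERT KO against WT, Sox9 ranged from −0.31 to 0.027, Epcam from −0.18 to 0.043 and Cftr from −0.064 to 0.062. For mTR KO against WT, Sox9 ranged from −0.16 to 0.060, Krt19 from −0.40 to 0.060 and Dmbt1 from −2.61 to 0.17. The difference of the KO effects ranged from −0.096 to 0.13 for Krt7, −0.16 to 0.064 for Epcam, −0.082 to 0.26 for Sox9, −0.083 to 0.64 for Krt19 and −0.78 to 2.31 for Dmbt1. The WT groups ranged from −0.27 to 0.45 for Krt19, −0.040 to 0.18 for Epcam, −0.15 to 0.081 for Krt7, −0.18 to 0.11 for Sox9 and −1.19 to 0.30 for Dmbt1. The KO groups ranged from −0.039 to 0.094 for Epcam, −0.075 to 0.067 for Krt7, −0.094 to 0.22 for Sox9 and −1.13 to 1.96 for Dmbt1, and title number from −0.12 to 0.18 for Sox9 and −0.16 to 2.53 for Dmbt1. Of the members' values under the alternatives, 569 kept direction and call or, for Dmbt1 and Cftr, moved by less than the spread between replicates, some of them across 0, and 52 others changed sign. With Cela1 as a covariate Cdh1, Aqp1 and Rbpj no longer passed for title number, and Cela1 did not with trend and robust settings, at adjusted p 0.128. Each member has 1 probe, so the alternative of another probe could not be run. Members near background are limited by their signal.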
